A study of Mus musculus with 8 samples.

Results

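Oxidative phosphorylation subunits are the nuclear-encoded proteins of the mitochondrial respiratory chain and ATP synthase. The members were chosen by name: every gene of the junction table whose symbol belongs to the Nduf (complex I, letters a, b, c, s or v with a digit), Sdh (complex II, letters a to d), Uqcr (complex III), Cox4 to Cox8 (complex IV) or Atp5 (complex V, ATP synthase) families. The rule found 80 of the 13378 genes, read at 417 of the 134051 exon junctions of the table: 35 of complex I, 4 of complex II, 8 of complex III, 15 of complex IV and 17 of complex V. Ndufa4 is listed apart because it is named as a complex I gene and its product copurifies with complex IV. The rule itself uses no measured value, but it was chosen with earlier results of these data known. A further 16 names in the annotation match the pattern and have no row in the table, among them Cox7b2, Cox8b, Cox8c and Ndufa4l2, and were not analysed here. The members encoded by mitochondrial DNA fall outside the name pattern.

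The RNA came from FT1CL, a mouse acute myeloid leukaemia line derived from the bone marrow of a Cop1 cKO/Rosa26-Cre-ERT2 mouse (aged 8 weeks, given 5-fluorouracil) and transduced with a retrovirus carrying Trib1. All cells of both groups carry this transgene and grew with interleukin-3. Group one was Cop1 +/+ and untreated (wild type, 4 libraries), and the other was Cop1 ko/ko after 4-hydroxytamoxifen, the drug that activates Cre-ERT2 (knockout, 4 libraries), so genotype and drug cannot be told apart. Cop1 is a ubiquitin ligase that works with the adaptor Trib1. The libraries stand for 1 line, and the labels name no separate cultures behind them; every p-value here therefore reflects library-to-library spread, part or all of which may be technical.

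Complex I takes electrons from NADH and complex II takes them from succinate. Both pass them through ubiquinone to complex III, and cytochrome c carries them on to complex IV, which reduces oxygen. Complexes I, III and IV pump protons, and ATP synthase uses the gradient to make ATP. Each complex has a few catalytic subunits and many small accessory or isoform subunits, and blood cells differ in how far they rely on this route as they mature.

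Libraries held 17333302 to 22469109 junction reads, and depth did not separate the groups (exact two-sided permutation test, 4 against 4, p = 0.6, smallest possible 0.0286). Cop1 itself fell from 162 ± 2.92 to 73.7 ± 6.47 junction reads per 1000000 (RPM; mean ± SD, n = 4), summed over its junctions as for the gene levels defined below. On the first principal component of all genes, with 52.5% of the variance, the wild-type libraries lay between −56.9 and −19.1 and knockout libraries 1 to 3 between 40.6 and 49.3, while knockout library 4 stood apart at −2.09. Genes of the myeloid marker list were read in all libraries, at a summed 1576 to 3243 RPM in wild type and 3606 to 5371 RPM in knockout. Late neutrophil markers (10 genes, 6 higher, none lower) summed to 11.1 to 47.0 RPM in wild type and to 4905, 10328, 4373 and 358 RPM in knockout libraries 1 to 4. Of 9 myeloid markers 4 were called higher and none lower (5 and 1 with the replicate block). Mast cell and basophil markers (7 genes, 4 higher, none lower) summed to 12124 to 14070 RPM in wild type and 12159 to 17302 RPM in knockout. Erythroid markers summed to 34.0 to 69.5 and 13.8 to 26.8 RPM, megakaryocyte markers to 373 to 733 and 339 to 679 RPM, T cell markers to 13.1 to 38.7 and 4.33 to 8.63 RPM, and B cell markers to 0.952 to 3.38 and 0.878 to 2.83 RPM. The T cell genes Cd3e, Cd4 and Cd8a and the B cell genes Ms4a1 and Pax5 have no row in the table. The part of these cell states in the differences below was not tested, and in a bulk sample a change in the cells present and a change in RNA per cell cannot be told apart.

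The promoters of members are shown first because nuclear respiratory factor 1 (NRF1) and the ETS family factor GABP are known activators of many of these genes. RefSeq promoter windows (build GRCm38.p6) matched 64 of the 80 members. In the 250 bases before the RefSeq start, 13 of the 64 held the NRF1 motif (GCGC, any 1 base, then TGCGC) on either strand (20.3%), beside 4.23% of the 27025 genes with a window. The ETS motif CCGGAAG on either strand was in 12 of 64 (18.8%), beside 7.83% of those 27025 genes. They were not limited to the 13378 genes of the junction table, and the part of this in the contrast was not tested. A match describes letters, not a bound site. Of the 9 members called lower (see the tests that follow) with a window, 2 held the NRF1 motif (Sdha and Atp5g2) and 1 the ETS motif (Ndufs3). The stretches printed are 120 bases of each promoter, 5′ to 3′ on the gene's own strand, ending before the gene's start in both annotations. Sdha is the catalytic complex II gene and fell, Sdhd is its membrane anchor partner and was not called, and Ndufv2 fell and held neither motif in its 250 bases. Capitals mark the motifs.
Sdha, chr13:74350281-74350400, minus strand: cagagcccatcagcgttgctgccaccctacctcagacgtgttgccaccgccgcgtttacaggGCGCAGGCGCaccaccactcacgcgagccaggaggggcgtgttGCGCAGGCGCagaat
Sdhd, chr9:50603850-50603969, minus strand: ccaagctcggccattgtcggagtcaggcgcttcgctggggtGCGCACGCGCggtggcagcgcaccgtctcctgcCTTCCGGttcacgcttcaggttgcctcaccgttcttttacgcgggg
Ndufv2, chr17:66101560-66101679, minus strand: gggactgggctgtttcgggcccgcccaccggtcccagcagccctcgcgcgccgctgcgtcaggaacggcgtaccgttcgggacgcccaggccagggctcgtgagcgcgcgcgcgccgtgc
The Sdha stretch holds 2 NRF1 motifs, and the Sdhd stretch holds 1 NRF1 and 1 ETS motif.

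Levels differed widely within a complex. To compare genes, the level per junction is used: the mean RPM over a gene's main junctions, those read at least 0.2 times as much as its most read retained one, averaged over the 8 libraries. The median level per junction was 20.2 RPM for complex I, 25.0 for complex II, 29.1 for complex III, 61.5 for complex IV and 33.9 for complex V. Atp5b and Atp5a1, the β and α subunits of the ATP synthase head that make ATP, were the most read members at 186 and 146 RPM per junction. Cox8a, a small complex IV subunit, followed at 120.1 RPM and Uqcrh, the hinge protein of complex III, led its complex at 85.7 RPM. Complex I ran from 0.848 RPM for Ndufa3 to 59.8 RPM for Ndufb7, both accessory subunits, and complex II from 17.8 RPM for Sdhb to 30.4 RPM for Sdha. Ndufa4 stood at 79.4 RPM.

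**Figure D1:**
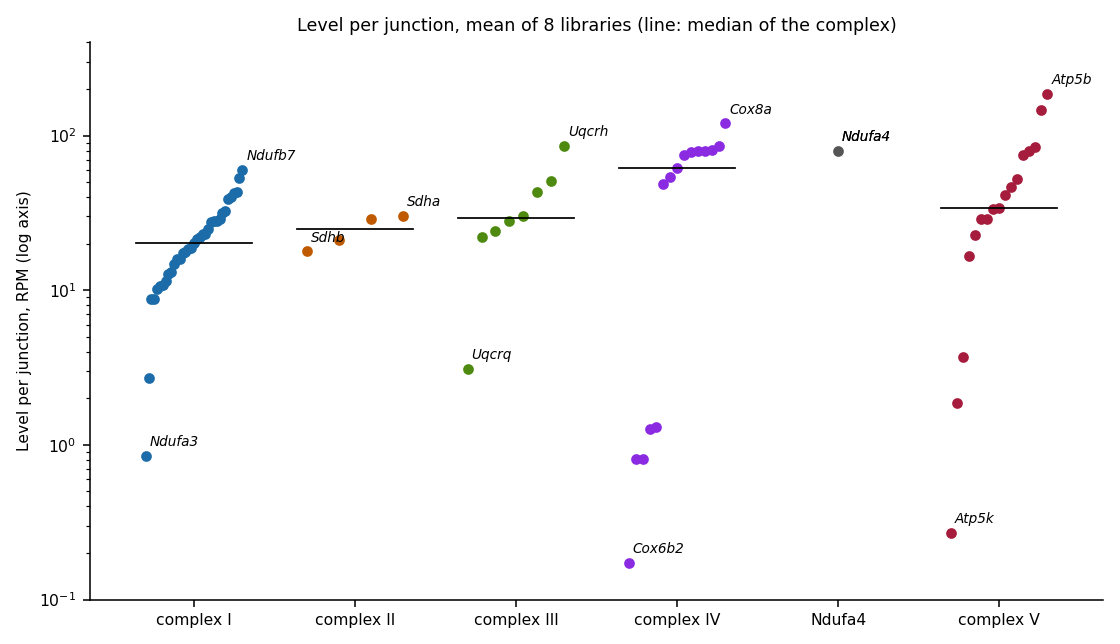
Level per junction (RPM, log axis, mean of 8 libraries) of each of the 80 members, by complex, with the lowest and highest member named and a line at the median of the complex. Of the 5 complexes, complex IV has the highest median, 61.5 RPM, and also the member with the lowest level, Cox6b2 at 0.172 RPM.

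Tissue isoforms were read at very different levels. Cox6a1, the widely expressed form of subunit 6a, stood at 86.0 RPM per junction and Cox6a2, the heart and muscle form, at 0.812 RPM. Cox7a2 stood at 48.3 RPM and its muscle form Cox7a1 at 1.31 RPM, while Cox7a2l, a relative that takes part in joining complexes III and IV into supercomplexes, stood at 54.0 RPM. Cox6b1 was read at 79.4 RPM and the testis form Cox6b2 at 0.172 RPM. For subunit 4 both forms were low, Cox4i1 at 1.27 RPM and Cox4i2 at 0.814 RPM, although Cox4i1 is the widely expressed form and its partner Cox5a was read at 78.9 RPM. Atp5k (0.270 RPM), Ndufa3, Ndufa7 (2.71 RPM) and Uqcrq (3.09 RPM) were also low. Several of these short genes have near-identical copies elsewhere in the genome, and how reads with more than 1 match were counted is not given in the sources used here, so their levels are uncertain. The 3 genes of the ATP synthase c ring, which encode the same mature protein, stood at 46.3 RPM (Atp5g3), 33.9 RPM (Atp5g2) and 16.8 RPM (Atp5g1).

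One feature of the table bears on every member. Some junctions show 6 reads or fewer in some libraries while the same gene's other junctions predict at least 100, and such dropped values make up 6.51% of the values at the 56315 junctions read well enough to tell. Among members, 28 genes, 59 junctions and 224 values were affected. The share of dropped values was 6.58% ± 0.425 in wild type and 6.44% ± 0.235 in knockout (mean ± SD, n = 4; exact two-sided permutation test, p = 0.571), but for a single gene they can fall in 1 group. Gene levels are therefore sums over junctions with no dropped value by this rule in any library. Low values that the rule did not flag can remain in them, as for Ndufs7, Ndufa5 and Atp5j below. The sum over all junctions is given wherever it changes a call or a sign. Uqcrb, a small complex III subunit that helps hold ubiquinone, shows why. Its junction between exon blocks E2.2 and E3.1 had 700, 665, 632 and 589 reads in wild-type libraries 1 to 4 and 1 read in each knockout library. Its other 2 junctions, added up, gave 45.3, 45.3, 42.2 and 50.1 RPM in wild type and 42.1, 43.4, 41.9 and 45.7 RPM in knockout. Over all junctions Uqcrb differed by −0.86 on the log2 scale (adjusted p = 0.000994), and without the dropped junction by −0.08 (adjusted p = 0.513).

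Levels were compared with limma on log2(RPM + 1), which understates changes of genes near 1 RPM. Adjusted p-values are Benjamini-Hochberg values over the 10996 genes whose mean reached 1 RPM, and a gene was called at an adjusted p under 0.05. Differences are knockout minus wild type on this log2 scale. Of the members, 79 were tested and Cox6b2 was not (0.506 ± 0.719 and 0.871 ± 0.339 RPM, n = 4). The call rate over all genes tested was 16.4% lower (1802 genes) and 10.4% higher (1149 genes), with a median difference of −0.07. Of the 79 members, 13 were called lower and 1 higher, the median was −0.08, and 56 were below 0. The share of members called lower is near the background. Under TMM scaling, which moves the median of all genes to 0.00 and the higher share of all calls from 38.9% to 49.6%, 8 members were called lower and 3 higher (background 12.7% lower and 12.5% higher). Levels of the 2 groups did not overlap for 18 tested members that were lower in knockout and 2 that were higher (background 18.1% and 10.9% of genes, 29.0% in either direction). With the replicate number as a block 18 members were called lower and 1 higher (background 21.5% and 15.2%, 36.7% in either direction), and without both libraries numbered 4 there were 16 lower and none higher (background 19.5% and 13.9%, 33.3% in either direction).

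**Figure D2:**
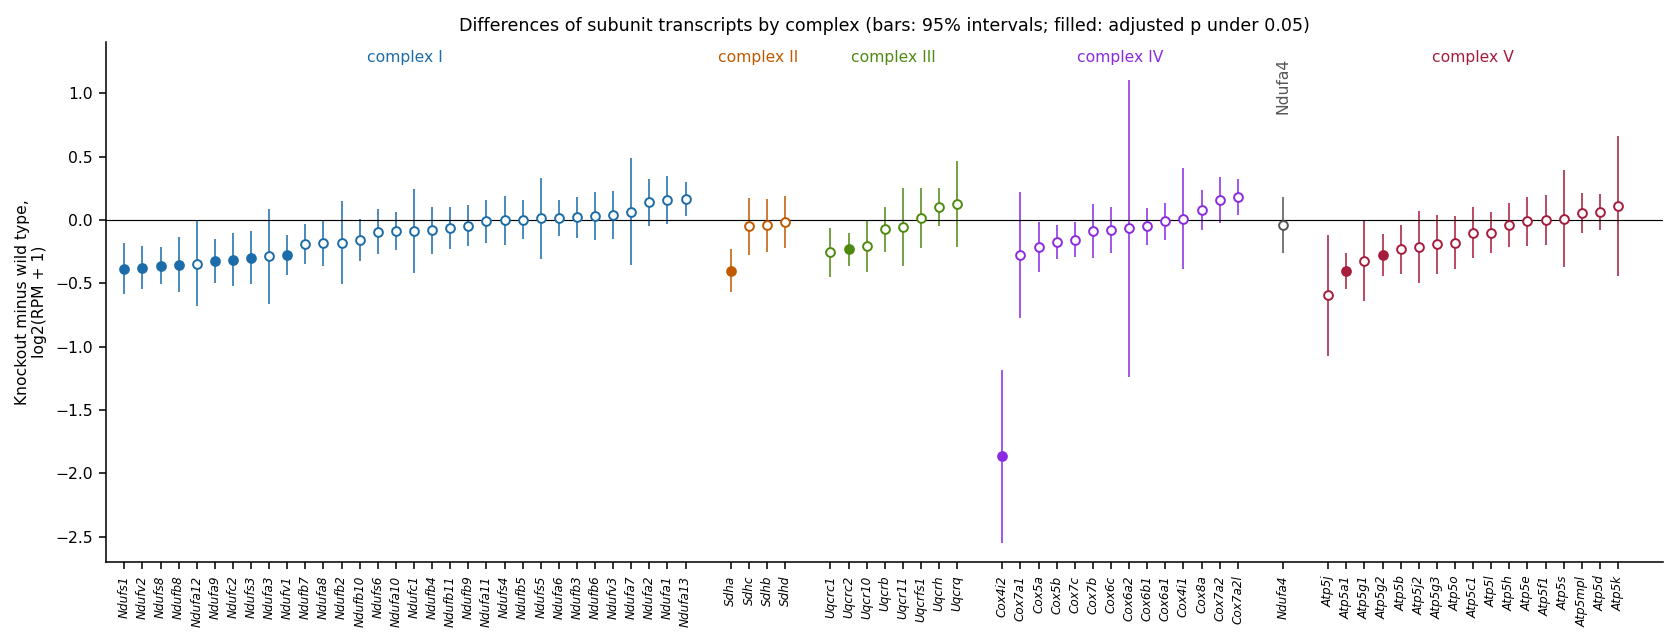
Difference between knockout and wild type on the log2(RPM + 1) scale for 76 tested members (points) with 95% intervals from limma (bars), by complex. Ndufs7 and Ndufa5, whose retained junctions are uneven, are among those not drawn. Filled points passed an adjusted p of 0.05: 13 members, all lower, with Cox4i2 at −1.87 and the others between −0.41 and −0.23.

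The 13 members that fell were Ndufs1, Ndufs3, Ndufs8, Ndufv1, Ndufv2, Ndufa9, Ndufb8 and Ndufc2 of complex I, Sdha of complex II, Uqcrc2 of complex III, Cox4i2 of complex IV, and Atp5a1 and Atp5g2 of complex V. Cox4i2 aside, mean knockout levels were 75.5% to 85.1% of wild type, so the decreases were modest, and the groups did not overlap for any of the 13. Of these, 7 were still called without each library in turn: Ndufs1, Ndufs8, Ndufv2, Ndufa9, Sdha, Cox4i2 and Atp5a1. The other 6 lost the call without at least 1 library. The number called lower was 7 without wild-type library 2, 7 without knockout library 2 and 7 without knockout library 3. It was 21 without knockout library 4, the library that stood apart. In that order these were 8.86%, 8.86%, 8.86% and 26.6% of members, beside 10.8%, 11.3%, 10.6% and 20.9% of all genes. Under TMM scaling 8 of the 13 were called: the 7 named and Ndufv1. Median levels of the 13, as a percentage of each gene's wild-type mean, were 80.2%, 76.2% and 74.5% in knockout libraries 1 to 3 and 85.1% in library 4. The late neutrophil sum given above was also lower in library 4, and its part was not tested.

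**Figure D3:**
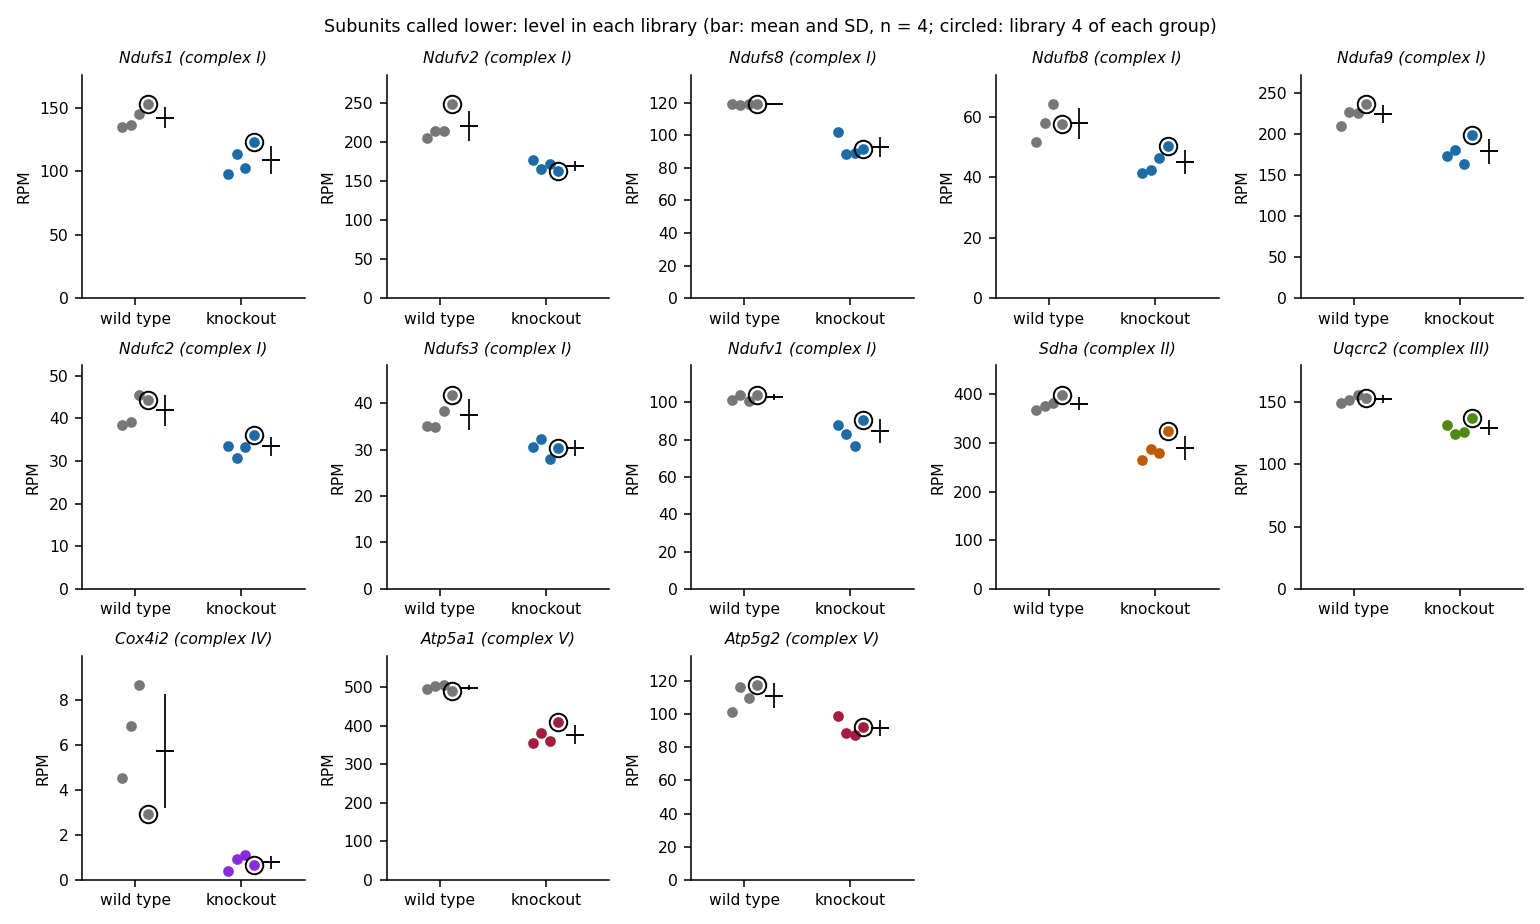
Level (RPM) of the 13 members called lower in each of the 4 wild-type and 4 knockout libraries (points), with the mean and SD of each group beside them and library 4 of each group circled. No knockout library reaches the lowest wild-type library in any panel.

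Complex I was called lower at 8 of its 35 tested genes, 22.9% beside the background of 16.4%. Its nuclear-encoded conserved core, the subunits that hold the flavin and the iron-sulfur clusters and the ubiquinone site, comprises 7 genes, and 5 of them fell. This grouping was made after the values were seen, so the count is a description. Of the other 28 subunits 3 fell, and the median difference was −0.30 for the core genes and −0.06 for the others.

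Ndufv2 (chr17:66078638-66101559, minus strand, mm10), the iron-sulfur subunit of the NADH-oxidising arm, was read at 206, 214, 214 and 249 RPM in wild type and at 177, 166, 172 and 163 RPM in knockout. It fell by 0.38 (SE 0.07; adjusted p = 0.00808). Ndufs8 (chr19:3908863-3912774, minus strand), an iron-sulfur subunit of the core, was nearly constant in wild type at 119, 119, 119 and 119 RPM and stood at 102, 88.4, 89.1 and 91.5 RPM in knockout. Its difference was −0.36 (SE 0.06; adjusted p = 0.00594). In both genes every knockout library lay below every wild-type library.

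Ndufs1 (chr1:63143596-63176833, minus strand), the largest core subunit, was read at 135, 136, 145 and 153 RPM against 97.8, 113, 102 and 123 RPM. It fell by 0.38 (SE 0.09; adjusted p = 0.0137). Ndufv1, the flavin subunit that binds NADH, went from 101, 104, 101 and 104 RPM to 88.0, 83.3, 76.4 and 90.7 RPM, a difference of −0.28 (SE 0.07; adjusted p = 0.0201). That call was lost without wild-type library 2, knockout library 2 or knockout library 3 (adjusted p up to 0.0568). Ndufs3, of the quinone-binding module, was the least firm of the 5. Its values were 35.1, 35.0, 38.3 and 41.9 RPM against 30.7, 32.3, 28.0 and 30.4 RPM, with a difference of −0.30 (SE 0.09; adjusted p = 0.041). It was not called over all junctions (−0.15, adjusted p = 0.559), under the replicate block (adjusted p = 0.0523), or with any 1 of the 8 libraries left out (adjusted p between 0.0512 and 0.108).

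Ndufs7, a core subunit at the quinone site, was the 1 member called higher (2.05, SE 0.59, adjusted p = 0.0349), with very uneven values. They were 14.9, 1.38, 1.69 and 1.18 RPM in wild type and 13.9, 14.8, 15.0 and 16.6 RPM in knockout. Only 1 of its retained junctions, between blocks E6.1 and E7.1, carried reads, with 284 in wild-type library 1, 2 in each other wild-type library and 239 to 334 in knockout. The neighbouring junction between E5.3 and E6.1 had 351, 343 and 310 reads in wild-type library 1 and knockout libraries 1 and 2, and 1 to 3 reads in the other 5. Over all junctions Ndufs7 was not called (2.45, adjusted p = 0.124), though it was with the replicate block, and without that block it lost its call without 6 of the 8 libraries (adjusted p up to 0.0912). Ndufa5 was uneven in the same way, at 0.620 and 0.796 RPM in wild-type libraries 1 and 2 and at 12.7 to 21.4 RPM in all others, and was not called (adjusted p = 0.205).

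The 3 accessory subunits that fell belong to different modules. Ndufa9 (chr6:126821721-126849136, minus strand), at the junction of the 2 arms, was read at 209, 226, 225 and 237 RPM in wild type and 173, 180.2, 163 and 199 RPM in knockout, a difference of −0.33 (SE 0.08; adjusted p = 0.0154). Ndufb8, of the distal membrane arm and often used as a marker of assembled complex I, went from 58.0 ± 5.2 to 45.2 ± 4.05 RPM (n = 4; −0.35, adjusted p = 0.0267). Ndufc2, a small membrane arm subunit, went from 41.8 ± 3.55 to 33.4 ± 2.27 RPM (n = 4; −0.32, adjusted p = 0.0342). The latter 2 calls were each lost without 6 of the 8 libraries and under TMM scaling (adjusted p = 0.0584 and 0.0763), and Ndufc2 also over all junctions (adjusted p = 0.0592), where other genes enter the adjustment. The 25 uncalled complex I members other than Ndufa5 differed by between −0.35 (Ndufa12) and 0.17 (Ndufa13). Ndufa12 was called lower with the replicate number as a block (adjusted p = 0.0207). Ndufa13, also known as GRIM-19, was read at 119 to 128 RPM in wild type and 135 to 145 RPM in knockout without overlap. It missed the threshold at an adjusted p of 0.0687 and was called higher under TMM scaling (0.24, adjusted p = 0.0174).

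Ndufs5, Ndufb4 and Ndufc1, all accessory, changed sign between the 2 sums. Ndufs5 differed by 0.01 without the dropped junction (adjusted p = 0.967) and by −1.06 with it (adjusted p = 0.0662), and that junction had 516 to 552 reads in wild-type libraries 1, 3 and 4 and 1 or 2 in the others. With the replicate block the all-junction value of Ndufs5 was called lower (adjusted p = 0.0455). Ndufc1 differed by −0.09 and 0.64, and Ndufb4 by −0.08 and 0.04, with no call in either sum.

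Complex II showed 1 gene of 4 called lower (25%, beside 16.4% of all genes). Sdha (chr13:74322254-74350280, minus strand) encodes the flavoprotein that oxidises succinate, and its promoter stretch with 2 NRF1 motifs is printed above. It was read at 367, 375, 381 and 399 RPM in wild type and at 265, 286, 279.9 and 324 RPM in knockout. It fell by 0.40 (SE 0.07; 95% interval −0.57 to −0.23; adjusted p = 0.0062). All knockout libraries lay below all wild-type libraries, and library 4 was the highest of the knockouts. The iron-sulfur subunit Sdhb differed by −0.04 (95% interval −0.25 to 0.17; adjusted p = 0.768). For the membrane anchors the differences were −0.05 for Sdhc (−0.28 to 0.17; adjusted p = 0.738) and −0.02 for Sdhd (−0.22 to 0.19; adjusted p = 0.912), and the groups overlapped for all 3. In knockout library 4, Sdhb, Sdhc and Sdhd stood at 111%, 113% and 112% of their wild-type means and Sdha at 85.1%. A test of Sdha against its partners was not made, because the contrast was noticed in these values.

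In complex III, Uqcrc2 was called lower of 8 genes (12.5%, beside 16.4% of all genes). Its product and that of Uqcrc1 are the large core proteins. Uqcrc2 was read at 149, 151, 156 and 153 RPM in wild type and 131, 124, 126 and 137 RPM in knockout, a difference of −0.23 (SE 0.06; adjusted p = 0.020). It rests on 6 of 14 junctions. These make up 39.9% of the gene's sum when each junction is taken at its highest RPM of the 8 libraries. Over all junctions Uqcrc2 was not called (−0.16, adjusted p = 0.595). The call was also lost without wild-type library 2, knockout library 2 or knockout library 3 (adjusted p up to 0.0595) and under TMM scaling (adjusted p = 0.0646). Uqcrc1 was similar in size at −0.26, from 393 ± 27.2 to 329 ± 30.9 RPM (n = 4). It missed the threshold (adjusted p = 0.0554) and was called with the replicate block (adjusted p = 0.0268). The Rieske iron-sulfur protein Uqcrfs1 was at 0.02 (adjusted p = 0.922). Uqcrh and Uqcrq were at 0.10 and 0.12, with no call.

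Complex IV had 1 call among 14 tested genes (7.14%, beside 16.4% of all genes called lower), and it was the largest decrease of any member on this scale. Cox4i2 (chr2:152754173-152765037, plus strand) encodes the form of subunit 4 that is known from lung and from cells at low oxygen. It was read at 4.53, 6.85, 8.68 and 2.92 RPM in wild type and at 0.39, 0.923, 1.08 and 0.668 RPM in knockout. These rest on 95, 129, 164 and 52 reads and on 8, 16, 21 and 15 reads, so the gene is low in both groups and the groups do not overlap. The mean knockout level was 13.3% of wild type, and the difference was −1.87 (SE 0.30; 95% interval −2.55 to −1.19; adjusted p = 0.00382). It was called under each alternative that tested it, with adjusted p from 0.00116 to 0.0158, and the filter at 10 RPM leaves it out. Its mean of 3.25 RPM passed the 1 RPM filter only through wild type, since its knockout mean was under 1 RPM. The alternatives include the fit with no filter on low values. At each of its 4 junctions the wild-type library with the fewest reads had more than any knockout library, with E4.1 to E5.1 at 41, 35, 55 and 23 reads against 0, 2, 5 and 6. Cox4i1, the other form, was at 5.67 ± 1.05 and 5.70 ± 0.962 RPM (n = 4), a difference of 0.01 (95% interval −0.39 to 0.41).

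The highly read complex IV subunits moved little. Cox8a differed by 0.07, Cox6a1 by −0.01, Cox6b1 by −0.05, Cox7a2 by 0.15 and Cox7b by −0.09 (0.13 over all junctions), and none was called. Cox5a and Cox5b, subunits in contact with the catalytic core, differed by −0.21 (adjusted p = 0.102) and −0.18 (adjusted p = 0.0557). With the replicate block Cox5a was called lower (adjusted p = 0.0242). Cox7a2l pointed the other way, at 109, 106, 99.99 and 104 RPM in wild type and 124, 117, 123 and 112 RPM in knockout, with no overlap. Its difference of 0.18 missed the threshold (adjusted p = 0.0598), and it was called higher under TMM scaling (0.25, adjusted p = 0.0238) with the 10 RPM filter and without knockout library 4 (adjusted p = 0.033). The muscle forms Cox6a2 and Cox7a1 differed by −0.07 and −0.28, with intervals of −1.24 to 1.11 and −0.78 to 0.22. Ndufa4 differed by −0.04 (adjusted p = 0.798).

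In ATP synthase, 2 of 17 genes were called lower (11.8%, beside 16.4% of all genes). With the replicate number as a block 5 were (29.4%, beside 21.5%), and none with the block over all junctions (background 15.7%). Atp5a1, the α subunit, had the smallest adjusted p of all members. It was read at 495, 503, 505 and 492 RPM in wild type and at 356, 380.1, 361 and 411 RPM in knockout. The difference was −0.41 (SE 0.06; adjusted p = 0.00328), and every knockout library lay below every wild-type library. This value rests on 3 neighbouring junctions that were read in all 8 libraries, E3.2 to E4.1, E4.1 to E5.1 and E5.1 to E6.2. They hold nearly all of the retained reads. Retained junctions make up 41.6% of the gene's sum when each junction is taken at its highest RPM of the 8 libraries. The other 6 read junctions of 12 each had dropped values in different libraries. Over all junctions the sums were 729, 731, 990.2 and 845 RPM in wild type and 788, 884, 721 and 902 RPM in knockout, and the difference was 0.01 (adjusted p = 0.981). Junction E2.1 to E3.1 alone had 2 to 8 reads in each wild-type library and 1714 to 2360 in each knockout library, the reverse of Uqcrb.

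Atp5b, the β subunit, was read at 941, 973, 1053 and 1038 RPM and at 781, 857, 796 and 988 RPM. Knockout library 4 reached into the wild-type range, and the difference of −0.23 was not called (adjusted p = 0.0759), but was without that library (adjusted p = 0.00841) and with the replicate block (adjusted p = 0.0381). Among the c ring genes only Atp5g2 was called, at 102, 117, 109.9 and 118 RPM against 98.8, 88.8, 87.6 and 92.2 RPM (−0.28, SE 0.07, adjusted p = 0.025). Leaving out any of wild-type libraries 2 and 4 and knockout libraries 2 and 3 ended its call (adjusted p up to 0.0745), as did TMM scaling (adjusted p = 0.0637). Atp5g1 differed by −0.32 (SE 0.14; adjusted p = 0.12; 0.0499 with the replicate block). Atp5g3 differed by −0.19 (adjusted p = 0.188), or by 0.21 over all junctions. No difference among the 3 was tested. Atp5j, a coupling subunit of the stalk, had the lowest value of the complex at −0.60, from 15.5 ± 2.15 to 10.2 ± 3.04 RPM (n = 4). It missed the threshold (adjusted p = 0.0652) and was called with the replicate block (adjusted p = 0.0171). Its retained junctions make up 25.3% of its sum when each junction is taken at its highest RPM of the 8 libraries. Among them, E4.2 to E5.2 had 105, 113, 92 and 124 reads in wild type and 2, 1, 87 and 107 in knockout. The rule for dropped values did not flag this junction, and its near absence in knockout libraries 1 and 2 enters the difference. Atp5e and Atp5j2 changed sign between the sums, from −0.01 to 0.46 and from −0.21 to 0.26, without a call.

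**Figure D4:**
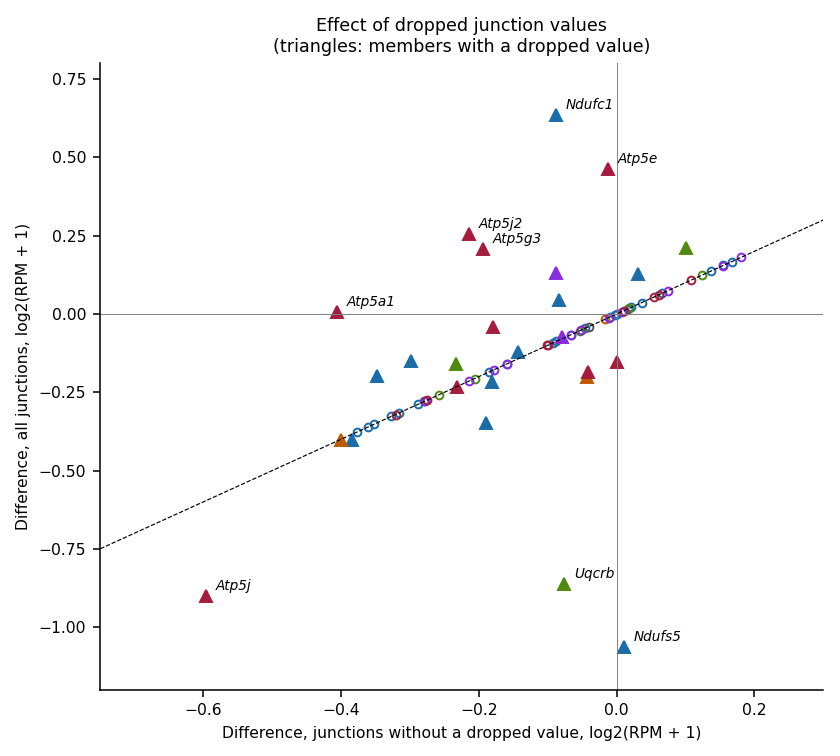
Difference of each member over junctions without a dropped value (x axis) and over all junctions (y axis), both on the log2(RPM + 1) scale, with the dashed line where they are equal. Triangles are members with a dropped value, and Ndufs7, Ndufa5 and Cox4i2 are not drawn. Members with no dropped value lie on the line, and Atp5a1 (−0.41 and 0.01), Uqcrb (−0.08 and −0.86) and Ndufs5 (0.01 and −1.06) lie far from it.

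Over all junctions, 10 members were called lower and none higher (background 12.1% and 8.49%), with limma as above. Of the 13 lower members 9 were among the 10, and Atp5a1, Ndufc2, Ndufs3 and Uqcrc2 were not, while Uqcrb was added. Cleaning removed nothing from the 52 members without a dropped value. Of the 51 of these that were tested, 8 were called lower (15.7%) and none higher, with a median of −0.05. Of the 28 with a dropped value 5 were called lower (17.9%) and 1 higher, with a median of −0.12. Both shares called lower are near the 16.4% of all genes over the cleaned sums, where 10.4% were called higher.

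Use of single junctions within a gene was compared with limma's diffSplice for 201 junctions of 50 members. None was called, and the smallest adjusted p was 0.999958. Over all genes 10 of 35368 junctions were called (0.0283%). At an unadjusted p under 0.05 there were 3 member junctions, beside 1.62% of all junctions. They were a junction of Ndufa10 and the first-exon pair of Atp5g1. The alternative first exons of Atp5g1 join the same block E3.2. The share of reads from E1.1 among the 2 was 64.2%, 54.6%, 60.2% and 58.7% in wild type and 48.3%, 51.4%, 50.8% and 43.2% in knockout. This pair was chosen after its values were seen. Junction E1.1 to E3.2 stood at 21.9 ± 2.99 and 14.4 ± 1.80 RPM (n = 4), and E2.2 to E3.2 at 15.0 ± 2.57 and 15.6 ± 3.93 RPM (n = 4).

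Genes that build, feed and regulate the complexes were counted from 11 lists with 187 tested genes: 39 fell (20.9%, beside 16.4% of all genes), 3 rose (1.6%, beside 10.4%) and the median difference was −0.20. Over all junctions 21 of the list genes were called lower, a share below the background of 12.1%. Under TMM scaling there were 25, near the background of 12.7%. Without both libraries numbered 4 there were 37, near the background of 19.5%. With the replicate block 50 were called lower, above the background of 21.5%. The largest shift was in the list for mitochondrial transcription and its nuclear regulators, where 5 of 13 fell (7 with the replicate block), none rose and the median was −0.52. Tfam, which packages and transcribes mitochondrial DNA, fell from 32.2 ± 2.04 to 18.5 ± 2.89 RPM (n = 4; −0.78, adjusted p = 0.00364), and Pprc1, a coactivator of the PGC-1 family, from 49.5 ± 6.10 to 30.9 ± 2.87 RPM (n = 4; −0.66, adjusted p = 0.00472). Of the factors whose motifs were searched above, Gabpa, the DNA-binding subunit of GABP, fell from 32.7 ± 3.45 to 20.6 ± 2.10 RPM (n = 4; −0.65, adjusted p = 0.00486). Nrf1 differed by −0.13 and was not called (adjusted p = 0.356). These 2 were named for the motifs.

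Assembly factors did not all follow 1 pattern. Of 17 complex I assembly factors 4 fell, beside 16.4% of all genes, with a median of −0.29. Foxred1, which acts late in complex I assembly, fell by 0.47 (adjusted p = 0.00355), and Ndufaf2 fell by 0.59 (adjusted p = 0.0372), a call lost under TMM scaling (adjusted p = 0.0548), over all junctions (adjusted p = 0.051) and without some libraries (adjusted p up to 0.0821). Of the 4 complex I calls 1 was left under TMM scaling. Of 22 complex IV assembly genes 4 fell, near the 16.4% of all genes. In this list 2 were called lower over all junctions, 2 under TMM scaling and 5 with the replicate block (all genes: 12.1%, 12.7% and 21.5%). Lrpprc, which stabilises mitochondrial messenger RNA, went from 241 ± 12.8 to 149 ± 17.1 RPM (n = 4; −0.69, adjusted p = 0.00206), and Cox15, needed for heme a, fell by 0.33 (adjusted p = 0.0191; 0.101 over all junctions, and up to 0.0564 without single libraries). No assembly gene of complexes II (3 tested), III (5 tested) or V (5 tested) was called. In the list of cytochrome c and subunits outside the name pattern 1 of 5 fell, or 2 with the replicate block. Atpif1, the inhibitor of ATP synthase in reverse, fell by 0.42 (adjusted p = 0.00495), and Cyc1 was not called (adjusted p = 0.147).

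In coenzyme Q synthesis 2 of 13 fell (3 with the replicate block), near the 16.4% of all genes (21.5% with the block). They were Coq7, by 0.48 (adjusted p = 0.0343), and Coq8a, by 0.65 (adjusted p = 0.0496). Neither passed under TMM scaling (adjusted p = 0.0508 and 0.0711) or over all junctions (adjusted p = 0.0506 and 0.0622). In the citrate cycle and pyruvate list 7 of 18 fell (8 with the replicate block) and 2 rose, beside 16.4% and 10.4% of all genes. Suclg2 and Suclg1, subunits of succinyl-CoA synthetase, which makes the substrate of complex II, fell by 0.71 (adjusted p = 0.00267) and 0.48 (adjusted p = 0.00487). Of 10 genes for carriers, porins and protein import of the mitochondrial membranes 5 fell, beside 16.4% of all genes. Among them were the porin Vdac1, by 0.39 (adjusted p = 0.00562), and the ATP/ADP exchanger Slc25a5, by 0.50 (adjusted p = 0.00603). Over all junctions 1 gene of this list was called lower, beside 12.1% of all genes, and Vdac1 was not called (adjusted p = 0.0588). Of 76 mitochondrial ribosomal protein genes 11 fell and 1 rose, with a median of −0.23. The share that fell was below the 16.4% of all genes. In this list 5 were called lower over all junctions, 6 under TMM scaling and 16 with the replicate block. Each share was below that of all genes (12.1%, 12.7% and 21.5%). Mrps7 fell by 0.51 (adjusted p = 0.00738; 0.0921 over all junctions) and Mrpl12 by 0.54 (adjusted p = 0.00865).

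**Figure D5:**
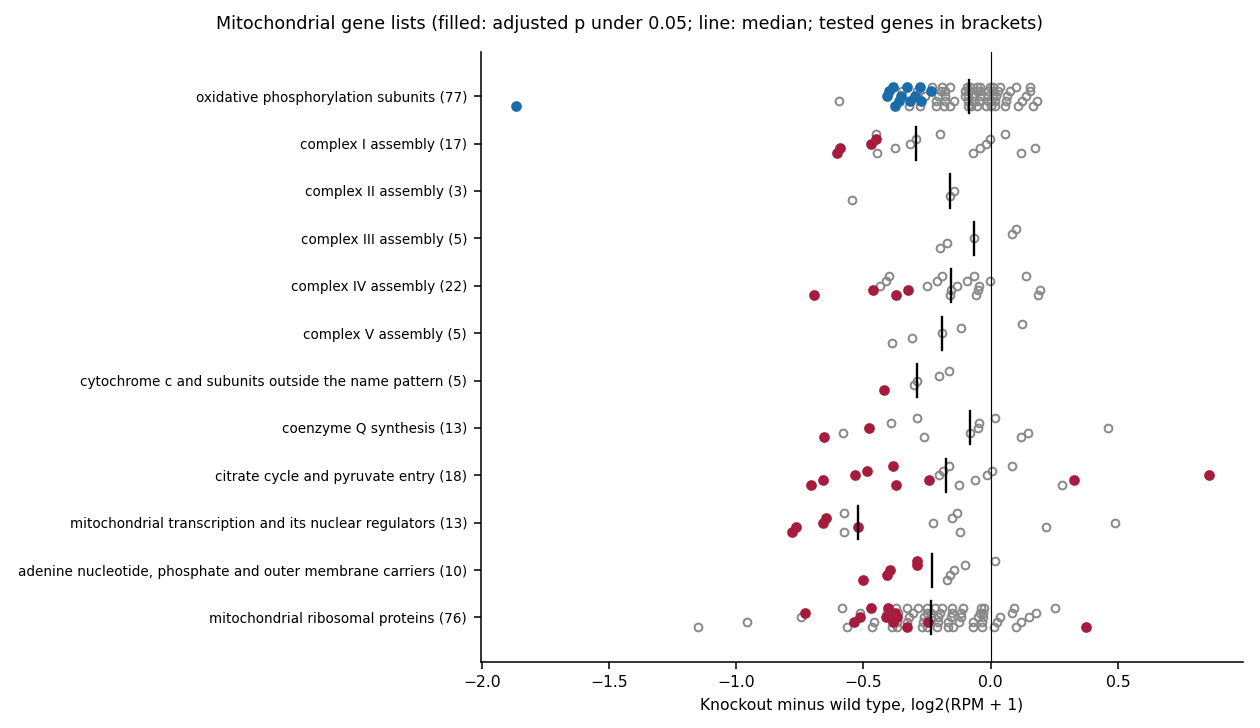
Difference of each tested gene on the log2(RPM + 1) scale (points; filled where the adjusted p is under 0.05) for 77 subunit genes and the 11 lists of mitochondrial genes, with a line at each median. The regulator list has the lowest median, −0.52, and the subunits lie near the median of all genes, −0.07.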

How the data were processed

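Strand-specific RNA libraries of 4 wild-type and 4 knockout samples of the line were sequenced. Per the submitters' processing notes, Trimmomatic 0.39, kallisto and build mm10 were used; the junction counter, its annotation and its filters are not stated there or in the labels. The deposited table holds a normalised signal per exon junction, named by Ensembl gene and exon blocks per the file header. Tested on the values, each is the junction's reads plus 1, scaled by the library's junction total and 60 nt, so that the lowest value in the table is 0.854; inverting this gave whole reads for 100% of values above that floor, within 0.001 of a read. A fragment over several junctions counts at each. RPM is reads per 1000000 junction reads. Symbols and coordinates come from Gencode M21 (mm10), motifs from RefSeq promoters.

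A value was taken as dropped at 6 reads or fewer where the median ratio of the gene's other junctions predicts at least 100. Sums used limma 3.58.1 in R 4.3.3 (trend, robust) on log2(RPM + 1), for genes averaging 1 RPM or more, and Benjamini-Hochberg adjustment; junction use took log2(RPM + 0.05) at junctions averaging 100 scaled reads or more. Tested on simulated reads for 10956 genes, the gene fit recovered 99% of changes of 1 on the log2 scale at a false call share of 0.0837%. Those reads had 1 fixed spread setting, with no dropped values, library pairs or outlying library, and no change under 1 was planted. Recovery of smaller differences, such as those of most called members, was therefore not tested. Pairs of libraries from the same group gave a chi-square per degree of freedom of 30.8 or more. Fragments counted at several junctions raise this value, as do dropped values where they enter the sums. It therefore cannot show that libraries differed by more than counting error, only that no library repeats the counts of another in its group.

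Replicate numbers in the labels are shared by the groups. Deviations of same-numbered libraries from their group means correlated at 0.342, 0.333, 0.414 and 0.596 across genes, above the 0.186 of any other pair, so the numbers were taken to pair the libraries, and blocked values stand beside calls and list counts they change. Members, lists and tests were chosen with earlier results of these data known. Genes were named by rule: every called member, the highest and lowest per complex, isoform pairs, members whose call or sign depends on dropped junctions, untested members, the Sdh genes, and up to 2 genes per list by smallest adjusted p. Alternatives are given at the end. Values of some genes are not reported here.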

Additional observations from a re-analysis of the deposited data

Results flagged for a closer look

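In groups of 4, a library is pointed out where its gap to the nearest other exceeds Dixon's 95% critical share of the range, which chance gives in about 1 of 20 groups; 84 groups of 42 named members were looked at and 2 stood out. Ndufs7 was read at 14.9 RPM in wild-type library 1 and at 1.18 to 1.69 RPM in wild-type libraries 2 to 4, the junction described above. Cox6b2 was read at 1.57 RPM in wild-type library 4 and at 0 to 0.238 RPM in the others, a few reads in each.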

How the results depend on the processing

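The gene fit was repeated under 21 alternatives; limma-voom on recovered reads and the replicate block with TMM scaling were chosen after seeing the data. The 2 count tools planned, edgeR and DESeq2, were not run: reads were recovered by inversion, but a separate check of the deposited values did not recognise whole reads in knockout libraries 2 and 4. Of 851 settings of 41 named members, 714 kept direction and side of the threshold, 55 were uncalled with another sign, 65 lost a call, 14 gained one and 3 reversed: Atp5a1 over all junctions (0.0056, also with the replicate block) and Ndufs5 over all junctions with the block (−1.06). Members called lower numbered 13, but 8 under TMM scaling, 18 with the replicate block, and 7 to 21 without single libraries; members called higher numbered 0 over all junctions, with the most read junction alone and without both libraries numbered 4, 3 under TMM scaling with or without the block, and 0 to 2 without single libraries. Complex I had 8 lower, but 4 with the most read junction, 5 under TMM scaling and 4 to 9 without single libraries. Complex III had 1, but 0 with the most read junction and under TMM scaling with or without the block, 2 with the 10 RPM filter, the block or without both libraries numbered 4, and 0 to 3 without single libraries. Complex IV had 1, but 2 with the block (either sum) or without both libraries numbered 4, and 1 to 2 without single libraries. Complex V had 2, but 1 over all junctions and under TMM scaling, 5 with the block, 0 with the block over all junctions, 4 without both libraries numbered 4, and 1 to 6 without single libraries. Over all genes 716 to 1529 were higher and 1157 to 2290 lower without single libraries, and 1991 were higher with the block and TMM scaling. With the block, 12 of the 13 lower members were still called; Ndufs3 was not, and Atp5b, Atp5g1, Atp5j, Cox5a, Ndufa12 and Uqcrc1 were added. The cause of these changes was not tested. Junction use gave 0 member calls in each alternative. Depth limits Cox6a2, Atp5k and Cox6b2, which average under 2 RPM.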
